A study of Mus musculus with 6 samples.

Results

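The receptors of the IL-1 family and the tissue-Treg genes Areg and Klrg1 were followed in regulatory T cells (Tregs) of the BM. The 8 genes, Il1rl1, Il1r1, Il1r2, Il1rap, Il18r1, Il18rap, Areg and Klrg1, were found by their names, each on 1 row of the 36930 features in every deposited table. Values were reads scaled by coding length and library (RPKM), so levels of different genes could be set side by side.

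Cytokines of the IL-1 family act through receptors made of a ligand-binding chain and an accessory chain, which together recruit the adaptor Myd88 and activate NF-κB. Il1rl1 (ST2) binds IL-33, Il1r1 binds IL-1α and IL-1β, and Il1rap is the accessory chain for both, while Il1r2 binds IL-1 without a signaling domain and acts as a decoy. Il18r1 and Il18rap together form the IL-18 receptor. Tregs that reside in nonlymphoid tissues are known for ST2, for the growth factor amphiregulin (Areg) and for the inhibitory lectin-like receptor Klrg1.

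Chronic myeloid leukemia (CML) was induced in 3 mice, and 3 naive mice without leukemia were the controls. All 6 mice, also the naive ones, were of the Foxp3-DTR-GFP genotype, in which the Foxp3 locus drives the diphtheria toxin receptor and GFP, and their labels give an age of 8 weeks after birth. The leukemic mice had received LSKs (stem and progenitor cells of the BM) transduced with BCR-ABL1-GFP by the i.v. route, without irradiation, and their Tregs were taken at day 15, so the leukemic cells carried GFP as well. Tregs were purified by FACS and gave 1 library per mouse, numbered 1 to 3 in each group by the replicate number of its label, and the comparison asks how RNA of BM Tregs differs between CML and naive mice.

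Estimated reads ran from 829181 to 7613827 in the CML libraries and from 5187987 to 9751911 in the naive libraries. CML replicate 2 was the shallowest, with reads on 12589 features, and its 10 highest features held 50.7% of its summed RPKM, against 28.5% to 31.3% elsewhere. All 8 Treg and T cell markers had reads in every library, with summed levels of 1889 to 2545 RPKM in CML and 1862 to 2101 RPKM in naive Tregs. Summed markers of other cells were lower. Ranges over the 6 libraries were 94.2 to 150.0 RPKM for monocytes and macrophages, 38.2 to 86.5 RPKM for NK and CD8 T cells and 3.18 to 10.7 RPKM for B cells. Eosinophil markers summed to 2.93, 15.5 and 19.8 RPKM in CML replicates 1, 2 and 3 and to 1.72, 0.509 and 6.45 RPKM in naive replicates 1, 2 and 3. Neutrophil and erythroid markers reached 212 and 206 RPKM in CML replicate 3, against at most 53.3 and 29.6 RPKM in naive libraries, and are given by library below. Foxp3, which defines Tregs, was at 398 ± 88.1 RPKM in CML and 338 ± 36.3 RPKM in naive Tregs (SD, n = 3), and the limma test did not separate the groups (log2 difference 0.22, adjusted p = 0.723).

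Among the 8 genes, Il1r2 stood apart, with a level in CML Tregs far above that in naive Tregs. Il1rap and Il18r1 were lower in all 3 CML mice, and the CML and naive values of Il1rl1, Il18rap, Areg and Klrg1 overlapped. Differences were tested with limma on log2(RPKM + 1) over the 13923 features with a mean of at least 1 RPKM, a scale that understates the change of low genes. Il1r1 stayed below this mean, and 7 of the 8 genes were tested. At an adjusted p under 0.05 and a fold of at least 1.5, 0 of the 7 were called by limma, beside 24 features in all (0.172%), of which 6 were higher and 18 lower in CML Tregs. A looser rule, with the p not adjusted and the fold kept, was met by 2 of the 7. Il1r2 was the gene that was higher under it, a rule that 2.61% of all features met in that direction, and Il1rap was the gene that was lower, beside 5.94% of all features. Without overlap between groups were 1 gene that was higher (Il1r2, beside 4.84% of all features) and 2 that were lower (Il1rap and Il18r1, beside 12.2%). The median log2 difference was -0.21 over the 7 genes and -0.18 over all features tested, and quantile normalization moved the latter to -0.0068.

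The call count over all features varied with the libraries used and with the scaling. It was 0 without naive replicate 1 or naive replicate 2, 3 without naive replicate 3, and 8 without CML replicate 3. Without CML replicate 1 the count was 29, and without CML replicate 2 it was 26. With quantile normalization, 23 features were higher and 30 lower, with a common 75th percentile 21 were higher and 32 lower, and with a common sum 1 was higher and 19 were lower.

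**Figure D1:**
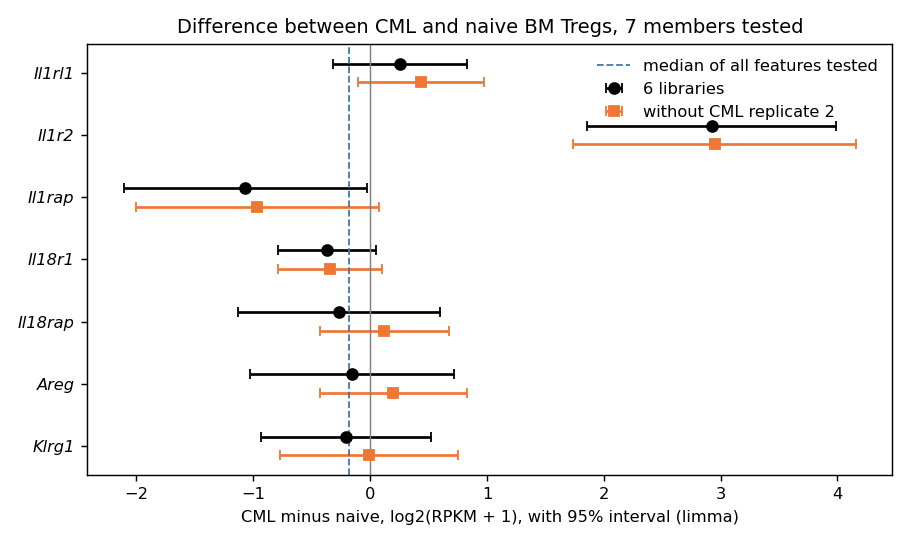
Difference between CML and naive BM Tregs on the log2(RPKM + 1) scale (horizontal axis) for the 7 tested genes, with 95% intervals from limma, for all 6 libraries (black circles) and without CML replicate 2 (orange squares). Il1r2 lies at 2.92, far to the right of the other genes, and Il18rap and Areg cross from below to above 0 without CML replicate 2, to 0.12 and 0.20. The dashed line is the median of all features tested, -0.18.

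Il1r2, the decoy receptor of IL-1, was at 21.3, 15.4 and 12.3 RPKM in CML mice 1, 2 and 3 and at 1.79, 1.80 and 0.431 RPKM in naive mice 1, 2 and 3. Each CML mouse was therefore above each naive mouse, and the lowest CML value was 6.87 times the highest naive value. Mean levels were 16.3 ± 4.57 RPKM in CML and 1.34 ± 0.785 RPKM in naive Tregs (SD, n = 3), a 12.2-fold ratio. In limma, the log2 difference was 2.92 with an SE of 0.46 and a 95% interval from 1.86 to 3.99, and the adjusted p was 0.0768 (unadjusted p = 0.000243). The difference was the 13th highest among the 13923 features, and it missed the threshold for the adjusted p. Over 17 alternative settings, the difference ran from 2.60 to 3.84 and the adjusted p from 0.0456 to 0.321. It passed the threshold with quantile normalization (adjusted p = 0.0456) and with library weights (adjusted p = 0.0473). An exact permutation test gave p = 0.1, the smallest value possible with 3 mice against 3. Il1r2 is on the list of genes that the study selected on these same libraries, so its direction there is not independent evidence.

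The values of Il1r2 rested on about 200, 16 and 35 reads in the CML libraries and on about 11, 19 and 5 reads in the naive libraries. The part of depth in the difference was not tested. Neutrophils of the BM also use Il1r2, and their 12 marker genes, 9 of them with reads, summed to 8.99, 203 and 212 RPKM in CML mice 1, 2 and 3 and to 24.0, 53.3 and 48.3 RPKM in the naive libraries. The neutrophil sum was thus higher in CML replicates 2 and 3 than in every naive library and lowest in CML replicate 1. Of the 7 neutrophil markers tested, 7 had a positive log2 difference (median 0.94), and Elane was higher without overlap, at 3.95, 7.56 and 29.1 RPKM in the CML libraries and at 2.66, 1.43 and 3.34 RPKM in the naive libraries (log2 difference 1.68, limma, unadjusted p = 0.0406, adjusted p = 0.496). Mpo reached 84.6 RPKM in CML replicate 3, whereas Mmp8, Retnlg and Cxcr2 were at 0 in all 6 libraries and Csf3r was at most 0.488 RPKM. The 7 erythroid markers, of which all had reads, summed to 124, 35.6 and 206 RPKM in the CML libraries and to 27.4, 29.6 and 5.01 RPKM in the naive libraries, without overlap. The part of these cells in the result was not tested. In such bulk libraries, a change in the number of cells that express a gene and a change in RNA per cell cannot be told apart.

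The start-site window of Il1r2 is shown because this gene carried the largest difference of the 8, and that of Il1rap because this gene had the lowest mean of the tested genes in CML Tregs and completes the receptor whose ligand Il1r2 captures. RefSeq gives windows of 250 bases before and 50 after a start site for 7 of the 8 genes (GRCm38.p6, 11 windows), and Klrg1 has none. The window of Il1r2 lies at chr1:40085843-40086142 on the plus strand and that of Il1rap at chr16:26581455-26581754 on the plus strand. In the Il1r2 window, capitals mark the match to the STAT motif TTCNNNGAA.
Il1r2: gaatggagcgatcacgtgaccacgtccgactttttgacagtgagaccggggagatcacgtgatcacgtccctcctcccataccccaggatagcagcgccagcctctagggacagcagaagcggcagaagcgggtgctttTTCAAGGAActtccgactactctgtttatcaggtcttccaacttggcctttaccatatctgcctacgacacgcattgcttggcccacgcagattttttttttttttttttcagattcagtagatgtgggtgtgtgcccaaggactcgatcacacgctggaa
Il1rap: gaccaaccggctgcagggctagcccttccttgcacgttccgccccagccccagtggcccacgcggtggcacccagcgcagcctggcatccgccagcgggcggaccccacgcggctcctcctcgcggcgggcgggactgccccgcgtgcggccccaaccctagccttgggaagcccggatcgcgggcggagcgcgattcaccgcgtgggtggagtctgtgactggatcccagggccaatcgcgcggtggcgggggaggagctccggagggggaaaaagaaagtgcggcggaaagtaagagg
The windows differ in base composition. That of Il1rap has 72.0% GC and 33 CpG dinucleotides, and 93.1% of all 32851 windows have a lower GC content, whereas that of Il1r2 has 51.3% GC and 16 CpG dinucleotides, beside medians of 52.7% and 7 over all windows. On both strands, 4 motifs were searched. The STAT motif TTCNNNGAA is held by 8.3% of all windows, the AP-1 motif TGANTCA by 7.81%, the GATA motif AGATAA by 11.18% and the RUNX motif TGTGGT by 16.76%. The window of Il1r2 holds 1 STAT match, which begins 111 bases before the start site, and the window of Il1rap holds none of the 4 motifs. Among the windows of the other genes, the 1 with STAT matches is that of Il18r1 at chr1:40465756-40466055, which holds 2. Il18r1 was lower in each CML mouse but was not called by limma. Whether a match relates to the direction of a difference was not tested. A match of letters is a description and not a binding site.

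Il1r1, the signaling receptor of IL-1, had reads in 1 library. It was at 2.97 RPKM in CML replicate 1, from 39 reads (95% Poisson interval 2.12 to 4.07 RPKM, counting error only), and at 0 in the other 5 libraries. A count of 0 allows up to 3 reads, or 2.10 RPKM in CML replicate 2 and 0.762 RPKM in CML replicate 3. In naive mice 1, 2 and 3 the same limit was 0.336, 0.199 and 0.179 RPKM. The level of CML replicate 1 lies above the limit of each of these 5 libraries. The limits cover counting error only, and amplified reads are not independent molecules, so 0 reads do not show that Il1r1 was absent. Without the filter on low values, the log2 difference of Il1r1 was 0.66 with an limma adjusted p of 0.709.

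The level of the decoy relative to the signaling receptor was taken within each library. In every library but CML replicate 1, Il1r1 was at 0 and the ratio was that of Il1r2 plus 1 RPKM to 1. There it restates Il1r2, and scaling does not cancel. Under the other scalings, the log2 difference between groups ran from 2.17 (common sum) to 2.57 (quantile normalization). The log2 ratio of Il1r2 to Il1r1, each plus 1 RPKM, was 2.49, 4.03 and 3.74 in CML mice 1, 2 and 3 and 1.48, 1.48 and 0.52 in naive mice 1, 2 and 3. Ratios in CML Tregs were higher in every mouse, with means of 3.42 ± 0.82 against 1.16 ± 0.56 (SD, n = 3; difference 2.26, exact 2-sided permutation p = 0.1, the smallest possible here). With a pseudocount of 0.1 the exact permutation p was 0.3, so the groups were no longer separate. With a pseudocount of 0.001 the difference was -0.010, since Il1r1 was at 0 in all but 1 library and the ratio then follows the pseudocount.

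Il1rap, the accessory chain that the IL-1 and IL-33 receptors share, was at 1.57, 1.65 and 3.19 RPKM in CML mice 1, 2 and 3 and at 6.79, 4.87 and 4.76 RPKM in naive mice 1, 2 and 3. No CML mouse reached the lowest naive mouse. Mean levels were 2.14 ± 0.911 RPKM in CML and 5.47 ± 1.15 RPKM in naive Tregs (SD, n = 3), a 2.56-fold higher mean in naive mice. The limma log2 difference was -1.07 with an SE of 0.45 and a 95% interval from -2.11 to -0.03 (unadjusted p = 0.0455, adjusted p = 0.506). It was negative under all 16 alternatives in which the gene was tested, from -1.42 to -0.81, with unadjusted p from 0.0110 to 0.142. The unadjusted p was above 0.05 without CML replicate 1 (0.0924), without CML replicate 2 (0.0641) and without naive replicate 1, 2 or 3 (0.142, 0.0965 and 0.0999).

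About 25, 3 and 15 reads lay behind the CML values of Il1rap and about 73, 88 and 96 behind the naive values. The part of depth in this difference was not tested. The antisense gene Gm20319 has exons over 663 of the coding bases of Il1rap, and strand-specific counting is not given in the sources used here. Reads from both could therefore not be told apart. Gm20319 had 0.962 RPKM in CML replicate 1, 3.65 RPKM in naive replicate 2 and 0 elsewhere.

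The decoy was also set against the shared chain within each library, in a comparison chosen after the values were seen and given without a test. The ratio of Il1r2 to Il1rap was 13.6, 9.29 and 3.86 in CML mice 1, 2 and 3 and 0.263, 0.369 and 0.0906 in naive mice 1, 2 and 3. Il1r2 was thus above Il1rap in each CML mouse and below it in each naive mouse.

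**Figure D2:**
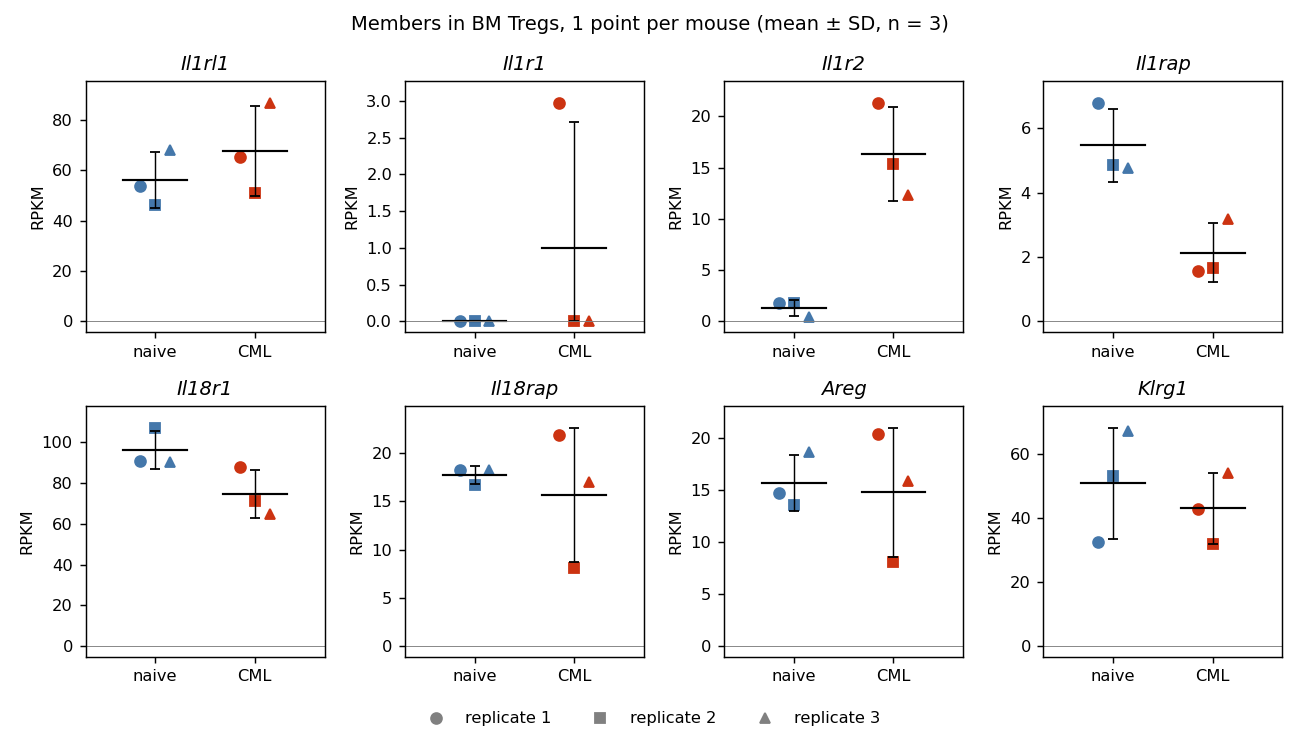
RPKM (vertical axis, from 0, with its own range in each panel) of the 8 genes in naive (blue) and CML (red) BM Tregs, with 1 point per mouse, the replicate shown by the symbol, and mean ± SD (lines; a lower arm is cut at 0). In the Il1r2 panel the CML points, at 12.3 to 21.3 RPKM, lie above all naive points, and in the Il1rap panel those at 1.57 to 3.19 RPKM lie below them.

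Il1rl1, the IL-33 receptor ST2 and a hallmark of tissue Tregs, was expressed in every library. Its levels were 65.3, 51.1 and 86.7 RPKM in CML mice 1, 2 and 3 and 53.8, 46.1 and 68.1 RPKM in naive mice 1, 2 and 3. The groups overlapped, with means of 67.7 ± 17.9 RPKM in CML and 56.0 ± 11.2 RPKM in naive Tregs (SD, n = 3). The limma log2 difference of 0.25 (SE 0.25, adjusted p = 0.737) had a 95% interval from -0.32 to 0.83, and 17 of 17 alternatives gave a positive value between 0.06 and 0.44. Mast cells and basophils also carry ST2, and their 8 markers, 7 of them with reads, summed to 8.58, 12.4 and 4.84 RPKM in the CML libraries and to 1.11, 5.43 and 0.797 RPKM in the naive libraries, with Fcer1a at 0 in all 6. The 2 genes of this list that were tested were higher without overlap in CML Tregs, Gata2 at 4.26 ± 3.55 against 0.316 ± 0.547 RPKM (SD, n = 3; log2 difference 1.88, limma adjusted p = 0.401) and Hdc with a log2 difference of 1.22 (limma adjusted p = 0.551). Of the markers not tested, Ms4a2 was at 3.40 RPKM in naive replicate 2 and at 0 elsewhere. Cpa3 averaged 0.157 RPKM in CML and 0.262 RPKM in naive Tregs. Mcpt8, Kit and Prss34 had higher means in CML Tregs, each resting on 1 library. In CML replicate 1, Mcpt8 was at 2.65 RPKM and Kit at 2.60 RPKM, and Prss34 was at 0.534 RPKM in CML replicate 3. Elsewhere in CML, Mcpt8 and Prss34 were at 0 and Kit was at most 0.411 RPKM, against up to 0.466 RPKM in naive libraries. The part of mast cells and basophils in the level of Il1rl1 was not tested. Relative to its accessory chain, Il1rl1 was 41.5, 30.9 and 27.2 times Il1rap in CML mice 1, 2 and 3 and 7.91, 9.48 and 14.3 times in naive mice 1, 2 and 3, without overlap. This ratio too was chosen after the values were seen.

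Il18r1, the ligand-binding chain of the IL-18 receptor, had the highest mean of the 8 genes in both groups. It was at 87.8, 71.4 and 64.8 RPKM in CML mice 1, 2 and 3 and at 91.1, 107 and 90.5 RPKM in naive mice 1, 2 and 3. Values in CML Tregs were below those in naive Tregs in every mouse, although the highest CML value came close to the lowest naive value. Means were 74.7 ± 11.9 against 96.3 ± 9.54 RPKM (SD, n = 3), and the limma log2 difference was -0.37 (SE 0.18, adjusted p = 0.561, 95% interval -0.79 to 0.05). The groups overlapped once libraries were quantile normalized or scaled to a common 75th percentile.

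Il18rap, the accessory chain of the same receptor, was at 21.9, 8.12 and 17.0 RPKM in CML mice 1, 2 and 3 and at 18.3, 16.7 and 18.2 RPKM in naive mice 1, 2 and 3. The 3 naive mice were close to each other, and the CML mice lay on both sides of them. The limma log2 difference was -0.27 (SE 0.37, adjusted p = 0.825, 95% interval -1.13 to 0.60), and it was 0.12 without CML replicate 2, the library with the lowest value and about 12 reads of the gene. The ratio of Il18r1 to Il18rap, 4.01, 8.79 and 3.80 in CML and 4.98, 6.44 and 4.97 in naive mice 1, 2 and 3, overlapped between groups.

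Areg encodes amphiregulin, an EGF receptor ligand that Tregs release during tissue repair. Its levels were 20.4, 8.07 and 15.8 RPKM in CML mice 1, 2 and 3 and 14.7, 13.6 and 18.7 RPKM in naive mice 1, 2 and 3. The ranges overlapped, and the low value of CML replicate 2 rested on 5 reads (95% Poisson interval 2.62 to 18.8 RPKM, counting error only), an interval that covers all 3 naive values. The limma log2 difference was -0.16 (SE 0.38, adjusted p = 0.904, 95% interval -1.03 to 0.71), and 0.20 without CML replicate 2.

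Klrg1, an inhibitory receptor for cadherins and a marker of terminally differentiated Tregs, was at 42.9, 31.9 and 54.0 RPKM in CML mice 1, 2 and 3 and at 32.3, 52.9 and 66.9 RPKM in naive mice 1, 2 and 3. The ranges of the groups overlapped, and naive mouse 3 lay above every CML mouse. The limma log2 difference was -0.21 (SE 0.31, adjusted p = 0.841, 95% interval -0.93 to 0.52), and 0.02 without naive replicate 3, the mouse with the highest level. CML replicate 2 had 15 reads of Klrg1 (95% Poisson interval 17.9 to 52.6 RPKM).

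The order of the mean levels was alike in the 2 groups apart from Il1r2. In naive Tregs it ran from Il18r1 over Il1rl1, Klrg1, Il18rap, Areg, Il1rap and Il1r2 to Il1r1, and the ranges of neighbors overlapped only for Il1rl1 with Klrg1 and for Il18rap with Areg. In CML Tregs Il1r2 stood behind Il18r1, Il1rl1 and Klrg1 and before Il18rap and Areg, and its range overlapped with that of Il18rap. Il1rap and Il1r1 were the lowest of the 8 there.

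Of the 8 genes, 5 are neighbors on chromosome 1 (GRCm38, GENCODE M21), all on the plus strand within 477.6 kb. Their gene bodies are Il1r2 at chr1:40074079-40125231, Il1r1 at chr1:40225080-40317257, Il1rl1 at chr1:40429570-40465415, Il18r1 at chr1:40465552-40500854 and Il18rap at chr1:40515362-40551705. Il1rl1 ends 136 bases before Il18r1 begins, and Il18r1 lies 14.5 kb from Il18rap. Il1rap is on chromosome 16 (chr16:26581704-26730117), Areg on chromosome 5 (chr5:91139599-91148432), both on the plus strand, and Klrg1 on the minus strand of chromosome 6 (chr6:122270596-122282882).

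The genes of the cluster differed in direction. Il1r2 at its left end was higher in CML Tregs, Il18r1 near its right end was lower without overlap, and Il1rl1 and Il18rap on either side of Il18r1 overlapped. Il1rl2, the receptor of the IL-36 cytokines that lies between Il1r1 and Il1rl1, was at 3.05, 0 and 2.79 RPKM in CML mice 1, 2 and 3 and at 1.79, 0.529 and 0.951 RPKM in naive mice 1, 2 and 3 (log2 difference 0.29, limma adjusted p = 0.901). Its groups overlapped at these low levels. On the left, the kinase gene Map4k4 was lower in each CML mouse, at 52.8, 43.0 and 52.1 RPKM in CML and at 94.5, 87.8 and 75.9 RPKM in naive mice 1, 2 and 3 (log2 difference -0.79, limma adjusted p = 0.226). On the right, the sodium-proton exchanger gene Slc9a4 was at 0 in all 6 libraries. Within the gene body of Il1r2, the antisense gene Gm16894, named because it overlaps Il1r2, had 7.20, 0 and 4.08 RPKM in CML mice 1, 2 and 3 and 0, 0.797 and 1.55 RPKM in naive mice 1, 2 and 3. It starts inside the RefSeq window of Il1r2 and runs the other way, it overlapped between groups, and its exons cover 0 coding bases of Il1r2.

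**Figure D3:**
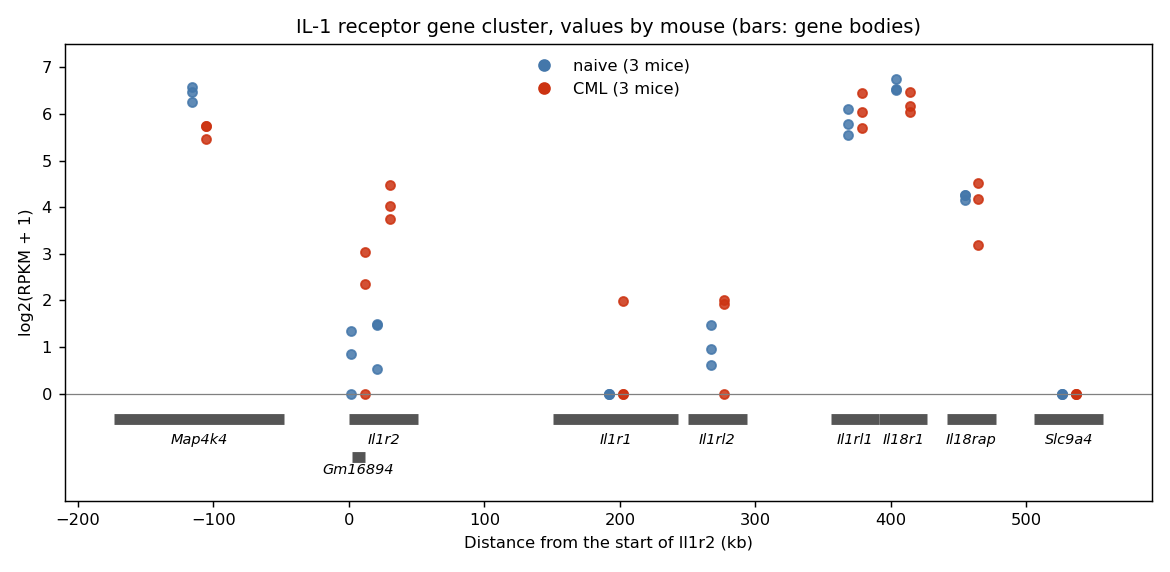
Levels of the genes in the IL-1 receptor cluster of chromosome 1, as log2(RPKM + 1) (vertical axis), at the middle of each gene body (dark bars below 0, drawn to scale), against the distance from the start of Il1r2 in kb (horizontal axis). Points are single mice, naive in blue and set slightly to the left, CML in red. The colors separate at Il1r2, with CML above naive, and at Map4k4 and Il18r1, with CML below naive.

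Ligands of these receptors were looked up in the same Tregs. Of 11 ligands and soluble antagonists, 7 were matched by name in the tables, and Il1a, Il33 and Il1f10 were at 0 in all 6 libraries. Il1b was at 0.481 RPKM in CML replicate 1 and at 0 elsewhere. The IL-1 receptor antagonist Il1rn was at 25.4 RPKM in CML replicate 3 and at 0 in the other 5 libraries (log2 difference 1.57, limma adjusted p = 0.694), so its difference rests on 1 mouse. Il18bp, which neutralizes IL-18, was at 11.5 RPKM in CML replicate 1, at most 2.07 RPKM in the other CML mice, and at 12.2, 6.66 and 11.1 RPKM in naive mice 1, 2 and 3 (log2 difference -1.23, limma adjusted p = 0.584). Il18 itself was at 2.79 ± 3.01 against 2.67 ± 2.82 RPKM (limma adjusted p = 0.985). Of the 3 ligand and antagonist genes tested, 0 were called and their groups overlapped.

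Of 4 further chains of the receptor family, 2 were tested and 0 called, and Il1rapl1 and Il1rapl2 were at 0 in all libraries. Sigirr, an inhibitory member of the family, was at 32.2, 38.4 and 33.2 RPKM in CML mice 1, 2 and 3 and at 47.3, 46.6 and 45.8 RPKM in naive mice 1, 2 and 3. It was lower in each CML mouse (log2 difference -0.42, SE 0.18), with an limma adjusted p of 0.516.

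The 21 signaling genes downstream of the receptors, from Myd88 to the NF-κB subunits, had reads in the libraries and were all tested. Of these, 0 passed the adjusted and 0 the unadjusted threshold with the fold, and their median log2 difference of -0.06 lay near that of all features (-0.18). The largest difference was that of Irak3, an inhibitor of the Irak kinases, at 2.11 ± 0.386 RPKM in CML and 4.86 ± 0.381 RPKM in naive Tregs (SD, n = 3; log2 difference -0.92, limma adjusted p = 0.538), the single gene of the list without overlap between groups. The kinase gene Irak4 (log2 difference 0.56, limma adjusted p = 0.600), the ubiquitin ligase gene Traf6 (-0.51, adjusted p = 0.732) and Tollip (-0.51, adjusted p = 0.718), which binds the receptor complex, overlapped between groups. The adaptor Myd88 was at 33.2 ± 10.8 RPKM in CML and 25.3 ± 3.30 RPKM in naive Tregs (SD, n = 3), and the target gene Nfkbia of NF-κB was at 230.1 ± 20.4 against 232.1 ± 14.1 RPKM.

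Among 7 genes that process IL-1 and IL-18, 6 were tested and 0 called (median log2 difference -0.15). Casp1, which cleaves both cytokines, was at 27.3 ± 13.1 RPKM in CML and 27.4 ± 11.3 RPKM in naive Tregs (SD, n = 3). The inflammasome sensor Nlrc4 (-0.71), the adaptor Pycard (-0.48) and the sensor Aim2 (-0.25) had negative log2 differences with limma adjusted p from 0.594 to 0.691. Casp4 was higher in each CML mouse, at 19.1 to 26.4 RPKM against 18.0 to 18.6 RPKM (log2 difference 0.31, limma adjusted p = 0.694).

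Transcription factors of tissue Tregs were described next, since they are known to accompany ST2, Areg and Klrg1. Of 11 tested, 0 passed the adjusted threshold and 3 were higher at the unadjusted p with the fold (Prdm1, Nfil3 and Maf), with a list median of 0.24. Gata3, which binds the Il1rl1 locus, was at 121.5 ± 19.3 RPKM in CML and 120.0 ± 4.50 RPKM in naive Tregs (SD, n = 3; log2 difference 0.01, limma adjusted p = 0.991). Prdm1, which encodes Blimp-1, was at 53.5, 39.4 and 51.9 RPKM in CML mice 1, 2 and 3 and at 19.9, 21.3 and 21.9 RPKM in naive mice 1, 2 and 3. The CML mice were all higher (log2 difference 1.15, limma adjusted p = 0.131). Nfil3 had a log2 difference of 1.60 (adjusted p = 0.426) with overlap between groups, and Batf, required for tissue Tregs to mature, one of 0.99 (adjusted p = 0.526) without overlap. Bach2, a factor of resting Tregs, was lower in each CML mouse, at 7.61 ± 4.47 against 15.1 ± 2.06 RPKM (SD, n = 3; log2 difference -1.09, limma adjusted p = 0.546).

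A further list held genes that mark tissue or effector Tregs. Of 17 tested, 4 rose in CML Tregs at the adjusted threshold and 0 fell, and 8 were higher and 1 lower at the unadjusted p with the fold. Their median log2 difference was 0.64. The 4 were the costimulatory receptor Tnfrsf9 (log2 difference 2.16, limma adjusted p = 0.0194), the chemokine receptor Ccr8 (2.08, adjusted p = 0.0416), the inhibitory receptor Lilrb4 (1.77, adjusted p = 0.0365) and the inhibitory receptor Tigit (1.73, adjusted p = 0.0350). Over 17 alternatives, Tnfrsf9 was called in 8, Lilrb4 and Tigit in 7 each and Ccr8 in 6, and each kept a positive difference. All 4 are on the list that the study selected from these libraries, as are Prdm1, Batf, Maf and Irak3, so their direction is not independent evidence. Whether these genes and the 3 tissue-Treg members differ in response was not tested.

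EGF family genes related to Areg and the ligands and relatives of Klrg1 were described next. Of 8 EGF family genes, 3 were tested and 0 called, with Adam17, the sheddase that releases amphiregulin, at 42.5 ± 3.83 RPKM in CML and 41.8 ± 6.76 RPKM in naive Tregs (SD, n = 3). Hbegf (log2 difference -0.24, limma adjusted p = 0.927) and the receptor Egfr (-0.76, adjusted p = 0.728) overlapped between groups. Of 10 cadherin ligands and killer lectin-like receptors, 3 were tested and 0 called. The ligand gene Cdh1 was at 16.2 ± 4.97 RPKM in CML and 8.37 ± 4.80 RPKM in naive Tregs (SD, n = 3; log2 difference 0.99, limma adjusted p = 0.572), and Klrd1 at 8.46 ± 9.50 against 10.4 ± 5.30 RPKM (-0.98, adjusted p = 0.757). Klrb1f was at 0 in the 3 CML libraries and at 3.28, 0.300 and 2.68 RPKM in naive mice 1, 2 and 3 (limma, unadjusted p = 0.0487, adjusted p = 0.513), which made it the gene of this list that was lower at the unadjusted p. The level that 0 reads of Klrb1f allow was not estimated, and CML replicate 2 was the shallowest library, so these values do not show absence.

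**Figure D4:**
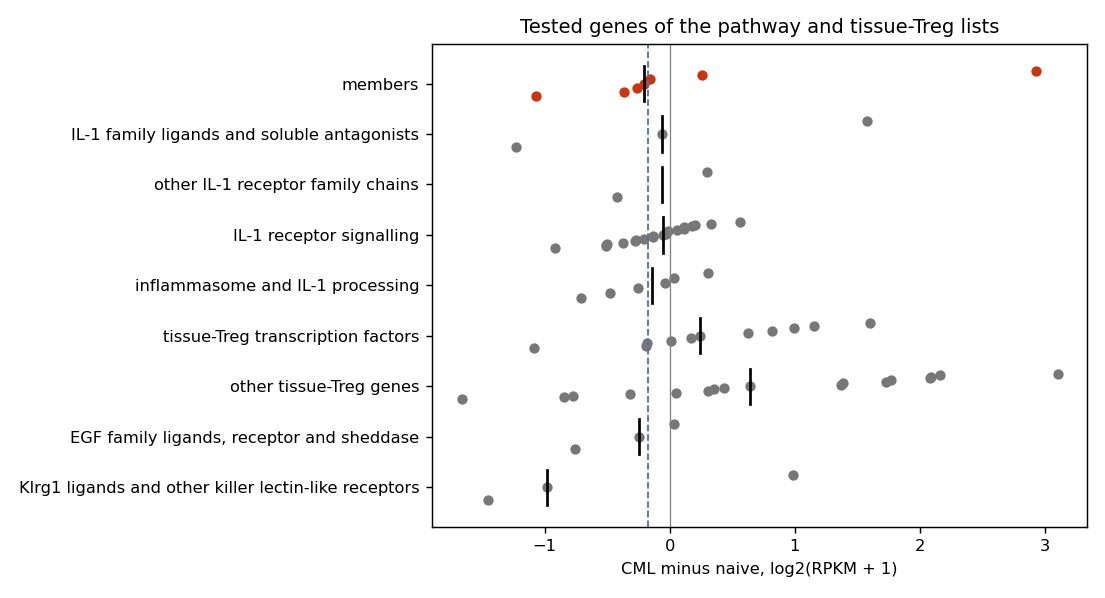
Difference between CML and naive BM Tregs, CML minus naive on the log2(RPKM + 1) scale (horizontal axis), for every tested gene of the 8 members (red) and of 8 related gene lists (grey points, 1 row per list, spread vertically only for legibility). Black bars are list medians and the dashed line is the median of all features tested, -0.18. The row of other tissue-Treg genes has its median at 0.64, and the row of IL-1 receptor signaling is centered at -0.06.

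Genes with the most similar pattern over the 6 libraries were listed for each tested member by the Pearson r of log2(RPKM + 1), as a description without a p. The points share library depth and scaling. Il1r2 was most like Rnf157 (r = 0.986) and Rap1b (r = 0.983), and Il1rl1 most like Mib1 (r = 0.993) and Gbp8 (r = 0.987). The nearest genes were Eef1d (r = 0.997) and Spice1 (r = 0.996) for Il1rap, R3hdm1 (r = 0.996) and Capn3 (r = 0.988) for Il18r1, and Zfp524 (r = 0.999) and Dbp (r = 0.997) for Il18rap. They were Hdhd2 (r = 0.996) and Nespas (r = 0.990) for Areg, and Tmem87b (r = 0.990) and Llph (r = 0.978) for Klrg1. Between members, r was highest for Il18rap with Areg (0.956), a pair in which CML replicate 2 held the lowest value of both genes, and lowest for Il1r2 with Il1rap (-0.88).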

How the data were processed

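RNA of FACS-purified BM Tregs from 3 CML and 3 naive mice was amplified with a low-input kit and sequenced from 1 end. The authors used SeqMan NGen for assembly and ArrayStar for analysis. Deposited values were taken as RPKM, a unit the sources do not name. This rests on the values: multiplied by coding length in the 8135 genes with a single coding length, 69.1% to 73.5% of values of 2 to 20 steps lay within 0.05 of a whole step, against 10% by chance. Reads per library and per gene are estimates from these steps, whole for Areg, Klrg1 and Il1r1 and approximate for the others. Intervals and limits from reads cover counting error only, since amplified reads are not independent molecules. The submitters' processing notes name GRCm38 and mm10, and the annotation used for counting is not given in the sources used here.

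A value of 0.001 marks no reads and was set to 0. The limma test (version 3.58.1, R 4.3.3) covered features with a mean of at least 1 RPKM (lmFit, eBayes with trend, p adjusted by Benjamini-Hochberg over 13923 features), after a check on simulated data. At the real spread, the check recovered 47.5% of 200 features given a log2 change of at least 2 in either direction, with 5 false calls. Smaller changes were not simulated. A feature that was not called may therefore still differ. A call was an adjusted p under 0.05 with a fold of at least 1.5. The count test of the study's methods could not be applied to RPKM. Exact 2-sided permutation tests served for single values (scipy 1.17.1, Python 3.11.15). Groups and replicate numbers came from the labels, and the labels and methods say that each library is from a different mouse.

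The members and gene lists were chosen with earlier results of these data known. Named genes were the 8 members, list genes that were called or otherwise up to 4 with the largest differences, the cluster neighbors, and the 2 features most like each member. Myd88, Nfkbia, Gata3, Casp1, Maf, both antisense genes, marker genes and untested list genes were named after their values were seen. Alternatives covered the pseudocount, the filter, 4 scalings, a replicate block, moderation, library weights and each library left out.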

Additional observations from a re-analysis of the deposited data

How the results depend on the processing

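Over 17 alternatives, Il1r2 stayed higher in CML Tregs (log2 difference 2.60 to 3.84), Il1rl1 stayed positive and Il18r1 stayed negative, and Il1rap stayed negative in the 16 in which it was tested. Signs turned for Il18rap (0.032 with library weights, 0.12 without CML replicate 2), Areg (0.079 and 0.20 in the same settings) and Klrg1 (0.021 without naive replicate 3). With 1 library left out, Il18rap ran from -0.54 to 0.12, Areg from -0.42 to 0.20 and Klrg1 from -0.49 to 0.021. All 3 were far from any threshold, and the cause was not tested. The log2 ratio of Il1r2 to Il1r1 turned to -0.010 at a pseudocount of 0.001.

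The count of all features called (24) was 0 with a pseudocount of 0.001 (973 at the unadjusted p with the fold), 1 without a filter, 53 with quantile normalization, 53 with a common 75th percentile, 49 with T cell genes as the scale, 11 without a trend, 45 with library weights, and 0 to 29 with 1 library left out. Members past the unadjusted threshold (2) were 1 with a pseudocount of 0.1 or 0.001, without a filter, with a mean of at least 5 RPKM (where Il1rap was not tested) and with quantile normalization, and 1 to 2 with 1 library left out. Il1r2 was past it in every one of these. The median of all features was -0.18, -0.28 with T cell genes as the scale and -0.03 without CML replicate 2.

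With the replicate number as a block, 1 feature was called and 1 member was past the unadjusted threshold. The labels do not say that these numbers pair the mice. Deviations of same-numbered libraries from their group means correlated at -0.0048, -0.0016 and -0.019. Such correlations cannot show whether same-numbered mice were handled together.

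Depth limits CML replicate 2 most, where Il1rap, Areg and Il18rap rested on 3 to 12 reads. With 3 mice per group, an exact permutation test cannot fall below p = 0.1.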
